A study of Mus musculus with 2 samples.

Results

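Bone is built from a collagen scaffold that is filled with acidic, mineral-binding proteins and then hardened with calcium phosphate, and 10 genes of this programme were followed here in mouse periodontal tissue. The genes were *Ibsp*, *Bglap*, *Bglap2*, *Spp1*, *Sparc*, *Alpl*, *Dmp1*, *Phex*, *Ifitm5* and *Car3*, taken by their symbols, and each was found once among the 31053 genes measured. Osteoblasts lay down the matrix on the surface of alveolar bone, osteocytes are osteoblasts that have become embedded in it, and the cells of the periodontal ligament, which anchors the tooth, can give rise to both osteoblasts and the cementum-forming cells of the root. In periodontitis the alveolar bone is resorbed, and osteopontin, the product of *Spp1*, is also made by macrophages and other inflammatory cells.

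The study profiled single cells from the gingiva and the surface of the alveolar bone of C57BL/6 wild-type mice aged 8 weeks. The control library came from untreated mice, and the LIP library from mice with ligature-induced periodontitis, in which a thread tied around a tooth gathers bacteria, 7 days after ligature placement. Each library pooled 5 mice, so there was 1 library per condition, animals could not be told apart and no difference between the conditions could be tested. After limits of 200 to 7500 genes, at most 60000 UMIs (transcript molecules counted once each) and at most 10% mitochondrial UMIs, the control library held 883 cells at a median of 10845 UMIs and the LIP library 936 cells at a median of 5595 UMIs.

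Cell classes were rebuilt by clustering without the 10 genes and *Bglap3*, and were named from marker lists that left them out too. The class with markers of osteoblasts and their precursors was called bone-lineage-like. It held 20 control and 31 LIP cells. Over both libraries together it showed 12 of its 17 listed markers, and *Mmp13*, *Gpx3*, *Col12a1*, *Col11a1*, *Tnn* and *Col1a1* led its genes. The support differed between libraries: the osteoblast factor *Sp7* was found in 4 of 20 control and 17 of 31 LIP cells. *Postn*, a matrix gene of the periodontal ligament, was found in 18 and 28. Several control cells of the class had only 1 or 2 of the 17 markers, while every LIP cell had at least 3. Set by at least 3 markers per cell, with cells of the fibroblast-like and cartilage-like classes allowed to enter, the class held 14 control and 42 LIP cells. The median depth in this class was 12931 UMIs in the control library and 25670 in the LIP library, so a cell with none of a gene was a weaker statement in the control library. Of the 2 barcodes found in both libraries, none was in this class. Levels are given as CPM, UMIs of a gene per 1000000 UMIs of the class, with exact Poisson 95% intervals, and a ratio of LIP to control carries an exact conditional 95% interval. These intervals cover counting error only, because the UMIs of 1 cell are not independent of each other and cells of 1 pool are not replicates.

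The osteocalcin genes show how closely related some members are, and their coding sequences are printed to show how few letters separate them. *Bglap* lies at chr3:88383501-88384464 and *Bglap2* at chr3:88377736-88378699, both on the minus strand of GRCm38, with 4801 bases between them. The coding sequences below were read from the longest open reading frame of each gene's protein-coding transcript in GENCODE vM21, and capitals mark the letters at which they differ.
Bglap: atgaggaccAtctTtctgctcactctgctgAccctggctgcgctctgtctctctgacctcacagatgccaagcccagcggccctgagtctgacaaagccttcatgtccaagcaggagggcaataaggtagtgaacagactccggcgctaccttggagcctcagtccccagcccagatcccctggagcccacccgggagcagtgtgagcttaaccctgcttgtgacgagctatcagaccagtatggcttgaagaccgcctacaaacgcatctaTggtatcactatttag
Bglap2: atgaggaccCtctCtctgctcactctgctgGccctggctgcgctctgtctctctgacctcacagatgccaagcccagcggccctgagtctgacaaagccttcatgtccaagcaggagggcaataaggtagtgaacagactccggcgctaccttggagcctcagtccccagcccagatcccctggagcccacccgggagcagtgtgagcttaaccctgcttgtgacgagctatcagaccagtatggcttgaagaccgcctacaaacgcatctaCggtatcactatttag
They differed at 4 of 288 bases (98.6% identical), and the last 149 bases of these transcripts were the same. *Bglap* and the neighbouring *Bglap3* differed at 13 of 288 coding bases and shared their last 78 bases. The assay reads transcripts from the 3′ end, so the division of UMIs between *Bglap*, *Bglap2* and *Bglap3* is uncertain, and reads that match several of them equally may have gone uncounted.

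Promoters were read from the RefSeq table of GRCm38.p6 for 8 of the 10 genes, with *Bglap2* and *Car3* having no entry. The 250 bases before the transcription start of that table were searched on both strands. For *Sparc* that start lay 3103 bases inside the gene from its GENCODE start, so its window was not upstream of the gene. The *Ibsp* window ran 116 bases past the GENCODE start, and those of *Ifitm5*, *Phex* and *Dmp1* 48, 26 and 4 bases. AACCACA, 1 form of the letters bound by RUNX factors, stood in the promoters of *Spp1* and *Dmp1* and in 4.40% of all 32851 promoters searched. Only this exact string was counted, and the *Bglap* promoter holds a stretch that differs from it in the first letter alone. TATAAA, the TATA box, stood in those of *Bglap*, *Spp1* and *Ibsp* in the last on the opposite strand, and in 12.4% of all promoters, and GGGCGG, the GC box, in those of *Alpl* and *Ifitm5* and in 32.7%. TAATTA, the core of homeodomain sites (4.84% of all promoters), and TGANTCA, the AP-1 site (6.75%), were in none of the 8. The *Spp1*, *Dmp1* and *Bglap* promoters are shown because, in the LIP library, UMIs of *Spp1* and *Dmp1* were also found outside bone-lineage-like cells. Those of *Bglap* were nearly all within them there. *Sparc* and *Alpl* also had LIP UMIs outside, with 50.4% and 79.1% within these cells, and the sequences searched for both lacked AACCACA. A link between these letters and the cell classes was not tested. In the control library the shares within these cells were 97.9% for *Spp1*, 93.4% for *Dmp1* and 86.4% for *Bglap*. Capitals mark the AACCACA and TATAAA letters.
Spp1, chr5:104434861-104435110, plus strand: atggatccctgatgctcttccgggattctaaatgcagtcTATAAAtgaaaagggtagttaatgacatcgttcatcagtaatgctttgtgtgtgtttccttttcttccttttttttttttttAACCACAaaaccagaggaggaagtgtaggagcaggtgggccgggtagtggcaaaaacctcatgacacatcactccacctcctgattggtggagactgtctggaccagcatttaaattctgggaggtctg
Dmp1, chr5:104202367-104202616, plus strand: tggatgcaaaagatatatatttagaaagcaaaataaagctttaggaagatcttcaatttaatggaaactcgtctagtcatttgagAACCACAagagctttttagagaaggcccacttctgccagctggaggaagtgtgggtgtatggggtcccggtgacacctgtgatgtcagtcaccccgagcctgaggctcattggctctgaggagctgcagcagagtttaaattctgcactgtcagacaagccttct
Bglap, chr3:88384467-88384716, minus strand: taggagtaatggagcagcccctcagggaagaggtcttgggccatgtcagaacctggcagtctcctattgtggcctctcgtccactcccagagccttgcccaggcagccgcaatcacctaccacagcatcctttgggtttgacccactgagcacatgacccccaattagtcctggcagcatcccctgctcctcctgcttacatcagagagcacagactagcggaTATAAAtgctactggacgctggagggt
AACCACA began 129 bases before the start in *Spp1* and 165 bases before it in *Dmp1*. The TATAAA of *Bglap* began 27 bases before its start, and that of *Spp1* lay much farther away, at 211 bases. These matches are descriptions of the letters and not of binding.

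Summed over the members other than *Sparc*, most UMIs lay in bone-lineage-like cells, 27361 of 32865 UMIs in the LIP library (83.3%) and 6113 of 6450 in the control library (94.8%), of which 5526 were *Spp1* UMIs of 1 cell. *Sparc* had 50.4% of its LIP and 28.3% of its control UMIs there, and in the control library fibroblast-like cells held more of it (8107 against 5644 UMIs). With *Sparc* included the class held 64.8% of the LIP and 44.6% of the control UMIs of the 10 genes. Among the members with at least 50 UMIs in a library, the median share of a gene's UMIs that lay in this class was 90.3% in the LIP library, over 10 genes, and 89.8% in the control library, over 8 genes. The shares ran from 50.4% for *Sparc* to 100% for *Phex* in the LIP library. In the control library they ran from 0% for *Phex*, whose UMIs were in fibroblast-like cells, to 97.9% for *Spp1*. The 89.8% of the control library fell to 35.0% when the cell with the most UMIs of each gene was left out.

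**Figure D1:**
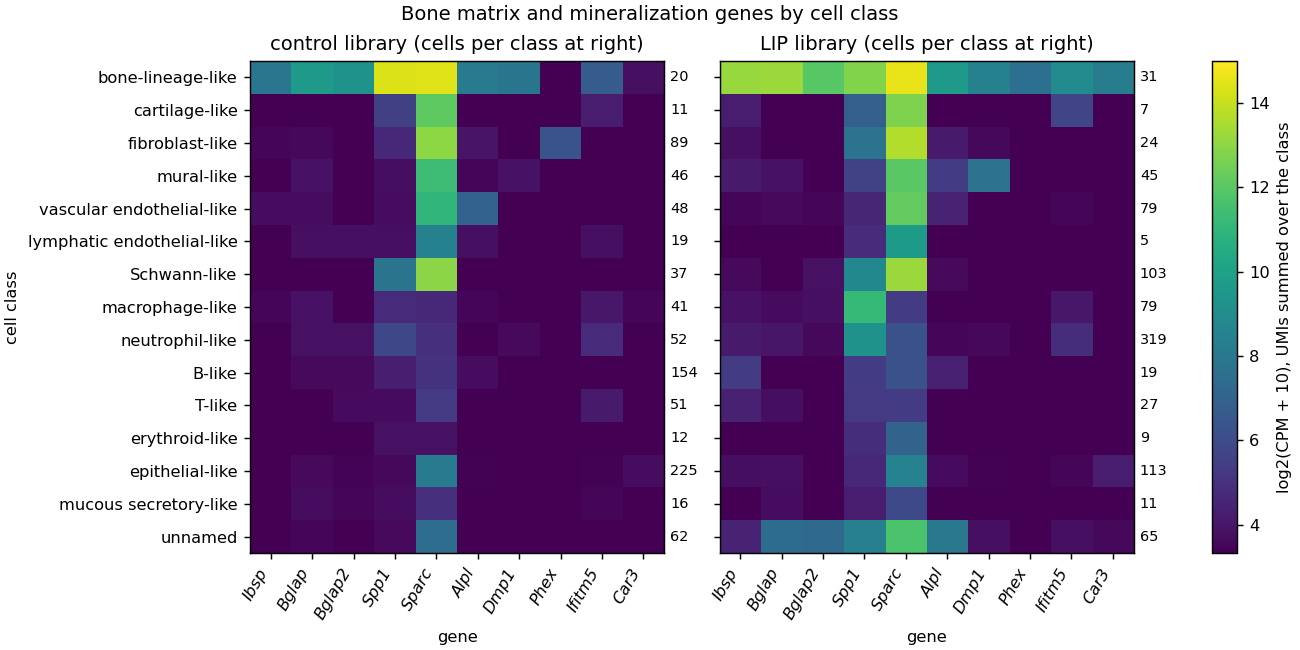
Level of each gene (columns) in each cell class (rows) as log2(CPM + 10), with the control library on the left, the LIP library on the right and the number of cells per class beside each row. The bone-lineage-like row is brightest in both libraries for each gene except *Phex* in the control library, *Sparc* is bright across the stromal and Schwann-like rows, and *Spp1* is bright in macrophage-like and neutrophil-like cells of the LIP library.

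In bone-lineage-like cells, 7 of the 10 genes were more than 2-fold higher in the LIP library than in the control library, with at least 50 UMIs over both: *Ibsp*, *Bglap*, *Bglap2*, *Alpl*, *Phex*, *Ifitm5* and *Car3*. *Spp1* was more than 2-fold lower, and *Sparc* and *Dmp1* were within 2-fold. *Phex* and *Car3* had 0 and 1 control UMIs, so they passed the limit of 50 UMIs through LIP cells alone. At such control counts a gene that passed could only be called higher, here and among all genes. Of all 3087 genes with that many UMIs in the class, 5.9% were more than 2-fold higher and 8.03% more than 2-fold lower. The median log2 ratio was 2.49 over the 10 members and -0.08 over all 3087 genes. Both counts rested on single barcodes. A control barcode of 63874 UMIs lay over the limit of 60000. Dropping the upper limits on genes and UMIs gave 21 control and 37 LIP cells, and 3 members were then higher and 3 lower. Beside this, 6.6% of all 3939 genes with at least 50 UMIs were higher and 6.3% lower. With 1 control cell left out, the one with the most *Spp1*, 9 members were higher and none lower, beside 6.3% and 8.91% of all 3065 genes. *Dmp1* then also had 0 control UMIs.

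**Figure D2:**
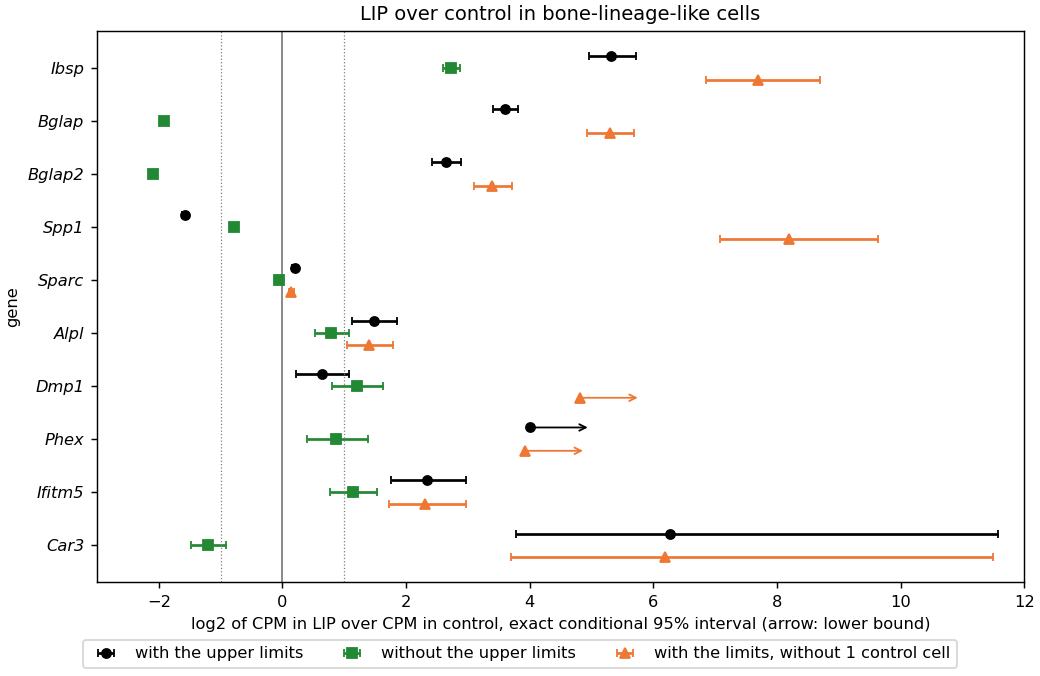
The log2 ratio of LIP to control CPM (x axis) of each gene (y axis) in bone-lineage-like cells, with exact conditional 95% intervals and arrows for lower bounds, under the upper limits, without them, and without the control cell with the most *Spp1*. Dotted lines mark 2-fold; *Bglap*, *Bglap2* and *Car3* lie to the right of both lines with the upper limits and to the left of both without them, and *Spp1* moves from -1.58 to 8.20 without 1 control cell.

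Among the structural proteins that bind mineral, bone sialoprotein (*Ibsp*, chr5:104299171-104311469), which starts the deposition of hydroxyapatite, had 7909 UMIs in 16 of 31 LIP cells and 60 UMIs in 3 of 20 control cells. Its level was 9249 CPM in the LIP library and 231 CPM in the control library, a log2 ratio of 5.32 (4.96 to 5.71). Over the 16 LIP cells with a UMI the count ran from 1 to 2100 with a median of 248.5, and the 3 control cells held 49, 10 and 1. The counts were uneven in both libraries: the highest cell held 26.6% of the LIP and 81.7% of the control UMIs, and 15 LIP cells had none. Thinned to 1000 UMIs per cell, with no bone-lineage-like cell too shallow, 45.2% of LIP cells (exact binomial interval 27.3 to 64.0%) and 1 of 20 control cells (0.127 to 24.9%) had a UMI. The thinned shares of the other members differed by fewer percentage points: 7 of 31 LIP and 3 of 20 control cells had *Bglap*, 6 and 3 had *Bglap2*, 12 and 6 *Alpl*, 8 and 2 *Spp1*, 7 and 1 *Ifitm5*, 5 and 0 *Car3*, 4 and 1 *Dmp1*, 4 and 0 *Phex*, and 31 and 19 *Sparc*. For each of these 9 genes the intervals of the 2 libraries overlapped. Epithelial-like cells, which should lack *Ibsp*, had a UMI in 7.96% of cells in the LIP library at a median of 23944 UMIs, none above 1 UMI, and in 0 of 103 cells after thinning, for which 10 shallower cells were left out. Without the upper limits the log2 ratio was 2.73 in place of 5.32, the removed control barcode holding 404 *Ibsp* UMIs and a removed LIP barcode 3164.

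Osteocalcin (*Bglap* and *Bglap2*) is a late osteoblast product that binds calcium through carboxylated glutamate residues. *Bglap* had 8200 UMIs in 12 LIP cells and 204 in 3 control cells, or 9590 against 787 CPM, a 12.2-fold difference (10.6 to 14.1). A single LIP cell held 4942 of those UMIs, and the 3 control cells held 144, 47 and 13. *Bglap2* had 3362 UMIs in 13 LIP cells and 163 in 3 control cells, or 3932 against 628 CPM, a 6.26-fold difference (5.35 to 7.37). The direction of both turned with the upper limits. The removed control barcode of 63874 UMIs held 9502 *Bglap* and 4328 *Bglap2* UMIs, beside 5918 of the collagen gene *Col1a1*, 18 of the osteoblast factor *Sp7*, 6 of the keratin gene *Krt14* and 1 of the leukocyte gene *Ptprc*. The 16 control barcodes over these limits held 97.5% of all *Bglap* UMIs deposited for the control library, and all but 1 of those UMIs were in this barcode. With it kept, *Bglap* was at 30027 CPM in 21 control cells and 7997 CPM in 37 LIP cells, a log2 ratio of -1.91, and *Bglap2* had a log2 ratio of -2.10. With the limits dropped and this 1 barcode left out, the ratios were 3.35 and 2.37.

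Osteonectin (*Sparc*, chr11:55394500-55423183), a collagen-binding protein made by many stromal cells, was the member found in every bone-lineage-like cell of both libraries. Its counts ran from 75 to 2214 UMIs with a median of 574 over LIP cells, and from 2 to 1144 with a median of 167.5 over control cells. Its level was 24946 CPM in the LIP library and 21760 CPM in the control library, a log2 ratio of 0.20 (0.15 to 0.24). The small difference changed sign with the choice of cells, to -0.061 without the upper limits and to -0.20 when the class was set by 3 markers per cell.

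*Dmp1* (chr5:104202613-104214102), an acidic protein of osteocytes and late osteoblasts, had 292 UMIs in 10 LIP cells, with the highest cell at 89, and 57 UMIs in 1 control cell. The levels were 341 and 220 CPM, a log2 ratio of 0.64 (0.22 to 1.07), and with that 1 control cell left out the log2 ratio was at least 4.81, against a floor of 3 counts. When the class was set by 3 markers per cell the ratio was -0.12. *Sost*, listed among osteocyte genes, had 9 UMIs in 2 LIP cells. *Mepe*, listed among other matrix genes and as a marker of the class, had 6 UMIs in 2. Both were at 0 in the control cells. The listed osteocyte genes with at least 50 UMIs are given below with the related genes.

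Osteopontin (*Spp1*, chr5:104435118-104441050) is secreted into bone and at cement lines and binds integrins and CD44. In bone-lineage-like cells it had 6117 UMIs in 19 LIP cells and 5532 in 3 control cells, or 7154 against 21329 CPM, a log2 ratio of -1.58 (-1.63 to -1.52). A single control cell of 13559 UMIs held 5526 of these, and the other 2 control cells held 5 and 1. In the LIP library the highest cell held 4193 and the next 1115, and the median over the 19 cells with a UMI was 6. With that control cell left out the control level was 24.4 CPM and the log2 ratio 8.20 (7.07 to 9.64), so the direction in bone-lineage-like cells turned with 1 cell. The same control cell carried 354 UMIs of the collagenase gene *Mmp13*, 144 of *Bglap*, 57 of *Dmp1*, 49 of *Ibsp* and 42 of *Col1a1*.

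High *Spp1* and high *Bglap* coincided in some bone-lineage-like cells and not in others. In the LIP library 7 cells had at least 100 *Spp1* UMIs. All 7 of them had *Mmp13* (6 to 478 UMIs), 6 had *Ibsp* and 5 had *Bglap*. At 10 UMIs or more the counts were 6 for *Mmp13*, 6 for *Ibsp* and 3 for *Bglap*. *Mmp13* was also a naming marker of the class, found in 14 of 16 LIP cells with *Ibsp* and 9 of 15 without. Of the 6 LIP cells with at least 100 *Bglap* UMIs, 2 had at least 10 *Spp1* UMIs, and the cell with 4942 *Bglap* UMIs had none. In the control library the 1 cell with at least 100 *Spp1* UMIs was also the 1 cell with at least 100 *Bglap* UMIs. Among the large LIP barcodes removed by the upper limits, a barcode of 95540 UMIs held 2983 *Spp1* and 3070 *Mmp13* UMIs, a barcode of 79853 UMIs held 2542 *Spp1* and 4633 *Mmp13* UMIs, and both had 0 *Bglap*, with 1 and 165 *Ibsp* UMIs. A barcode of 72550 UMIs held 3164 *Ibsp*, 1147 *Bglap* and 179 *Dmp1* UMIs with 3 *Spp1* and 0 *Mmp13*.

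The genes that act on mineral chemistry were lower in count. *Alpl* (chr4:137741733-137796384) encodes tissue-nonspecific alkaline phosphatase, which cleaves the mineralization inhibitor pyrophosphate. It had 655 UMIs in 18 LIP cells and 71 in 8 control cells, or 766 against 274 CPM, a 2.80-fold difference (2.19 to 3.63), and its log2 ratio of 1.48 was 0.79 without the upper limits. *Alpl* and *Spp1* reached beyond the cells with *Ibsp*. Of the 15 LIP cells without *Ibsp*, 5 had 234 *Alpl* UMIs together, 169 of them in 1 cell, and 7 had 209 *Spp1* UMIs, 202 of them in 1 cell.

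*Phex*, on the X chromosome at chrX:157162075-157415312, encodes a membrane endopeptidase whose loss causes X-linked hypophosphatemia. It had 158 UMIs in 10 LIP bone-lineage-like cells, 92 of them in 1 cell, and 0 in the 20 control cells. The LIP level of 185 CPM was at least 16.0-fold higher than the control level allowed by a floor of 3 counts. The removed control barcode held 41 *Phex* UMIs and a removed LIP barcode 114, and with them the log2 ratio was 0.87 (0.39 to 1.38).

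*Ifitm5* (chr7:140948958-140950291) encodes a small membrane protein of osteoblasts in which mutations cause a form of osteogenesis imperfecta. It had 415 UMIs in 12 LIP cells and 25 in 2 control cells, a 5.04-fold difference (3.36 to 7.87), and 24 of the 25 control UMIs were in 1 cell. Without the upper limits its log2 ratio was 1.14 in place of 2.33. *Car3* (chr3:14863512-14872523) encodes a carbonic anhydrase better known from muscle and fat. It had 253 UMIs in 11 LIP cells, from 1 to 92, and 1 UMI in the control cells, a 76.7-fold ratio whose counting interval ran from 13.7 to 3043. The removed control barcode held 173 *Car3* UMIs, and without the upper limits *Car3* was lower in the LIP library, with a log2 ratio of -1.20.

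**Figure D3:**
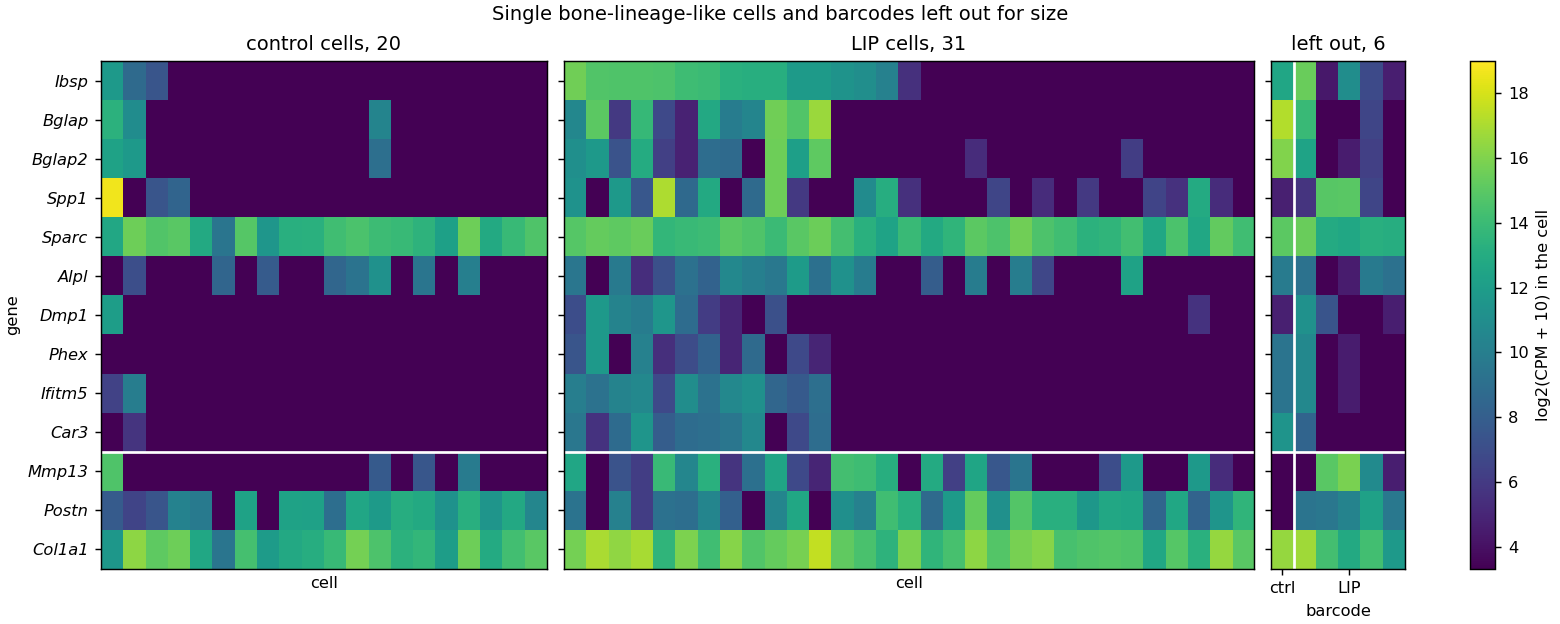
Level of the 10 genes, and of *Mmp13*, *Postn* and *Col1a1* below the white line, in each bone-lineage-like cell as log2(CPM + 10), with cells ordered from high to low *Ibsp* CPM, and in the 6 barcodes left out for size that had at least 10 UMIs of a member other than *Sparc*. The *Bglap* and *Ifitm5* rows are lit in the first 12 LIP cells and dark in the other LIP cells, and both are lit in the control barcode left out.

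These genes marked a subset of the class and not all of it. Besides *Sparc*, 12 of the 31 LIP cells had 6 to 9 of the other 9 members, 1 had 3 to 5, 14 had 1 or 2 and 4 had none. In the control library 2 of 20 cells had 6 to 9, 1 had 3 to 5, 8 had 1 or 2 and 9 had none. A member was counted from 1 UMI without thinning, at median depths of 25670 UMIs in LIP and 12931 in control cells. Some cells with 1 or 2 members rested on 1 UMI, of *Spp1* in LIP cells and of *Alpl* in control cells. All 12 LIP cells with *Bglap* also had *Ibsp* and *Ifitm5*. All 11 with *Car3* had *Ibsp*, *Bglap* and *Ifitm5*, and all 10 with *Phex* had the same 3 genes. The 15 LIP cells without *Ibsp* had no *Bglap*, *Phex*, *Ifitm5* or *Car3*, at a median of 22517 UMIs against 29003.5 in the 16 cells with it. *Postn*, a matrix gene of the periodontal ligament, was at 10045 CPM in the cells without *Ibsp* and 2099 CPM in those with it. The tendon and ligament factor *Scx* was at 117 and 16.1 CPM, on only 42 UMIs in 5 of 15 cells and 8 UMIs in 4 of 16. *Sparc* was at 22738 and 26545 CPM. Of the 20 control cells, 17 had no *Ibsp*. The summed levels therefore combine how many cells of each kind were caught with how much each cell held, and these cannot be told apart between 2 libraries.

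Within the cells that had *Ibsp*, the LIP level of *Ibsp* was 15949 CPM over 16 cells and the control level 1373 CPM over 3 cells. *Bglap* was at 16535 and 4370 CPM and *Ifitm5* at 837 and 572 CPM in the same cells. *Spp1* was at 11913 and 126462 CPM, the latter almost all from 1 cell. Single control cells also held 49 of the 60 *Ibsp*, 144 of the 191 *Bglap* and 24 of the 25 *Ifitm5* UMIs. These groups were set by a member, so the values are descriptions.

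Genes that work with these members were counted in the same cells. Of 64 related genes listed, 63 were matched and 33 had at least 50 UMIs in the class over both libraries, and of these 8 were more than 2-fold higher in the LIP library and 2 lower, beside 5.9% and 8.03% of all genes, with a median log2 ratio of 0.40. Without the upper limits 5 of 37 were higher and 2 lower, beside 6.6% and 6.3% of all genes. Without the control cell with the most *Spp1* 8 of 31 were higher and 2 lower, beside 6.3% and 8.91% of all genes. Among the 10 genes of the collagen scaffold and its processing, 3 were higher with the upper limits: *Col1a1*, the main collagen chain (59985 against 27509 CPM, log2 ratio 1.12), *Bmp1*, which trims procollagen (1.49), and *Fkbp10*, a collagen chaperone (1.30). The removed control barcode held 5918 *Col1a1* UMIs and a removed LIP barcode 7908, so the *Col1a1* call depended on the upper limits. *Col1a2* was at 31888 and 17627 CPM, a log2 ratio of 0.86. In mineral chemistry *Ank*, which exports pyrophosphate, was lower (80.7 against 173 CPM, -1.10), none of the other 3 with enough UMIs passed 2-fold, and *Smpd3* was at 257 and 158 CPM with all 41 control UMIs in 1 cell. *Bglap3* was 10.6-fold higher with the upper limits, from 314 LIP and 9 control UMIs. The removed control barcode held 415 *Bglap3* UMIs, so this direction depended on the upper limits, as for *Bglap*. *Vkorc1*, which recycles the vitamin K that osteocalcin needs, was at 442 and 239 CPM. *Mgp*, an inhibitor of mineralization, was higher (1231 against 520 CPM, 1.24), and *Tnfrsf11b*, the decoy receptor for RANKL, was at 39.8 and 54.0 CPM on under 50 UMIs. Among other matrix genes *Matn4* was higher (1.65) and *Omd*, osteomodulin, lower (-2.41), while *Bgn* was at 3418 and 3455 CPM and *Dcn* at 3514 and 6685 CPM. Among osteocyte genes *Irx5* was higher (2.84, on 71 and 3 UMIs), and *Pdpn* and *Ackr3* were within 2-fold. *Mmp13*, the main collagenase of bone, was higher (1.33), with 94.4% of its control UMIs in 1 cell, and the protease gene *Ctsk* was at 726 and 960 CPM. None of the 4 receptor genes for these proteins with enough UMIs passed 2-fold, *Itgb1* and *Itgb5* having the most UMIs (log2 ratios -0.62 and -0.58), and no other carbonic anhydrase reached 50 UMIs, *Car13* and *Car12* having the most with 13 and 6.

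*Spp1* was also found outside bone-lineage-like cells. At least 1 UMI was counted in every class of both libraries, and lymphatic endothelial-like cells had only 1 in each. In the LIP library 44.3% of its UMIs (exact binomial interval 43.4 to 45.3%) lay outside bone-lineage-like cells. Macrophage-like cells held 3296 of these and neutrophil-like cells 1006. The share outside was 29.4% without the upper limits and 71.7% when the top bone cell was left out.

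**Figure D4:**
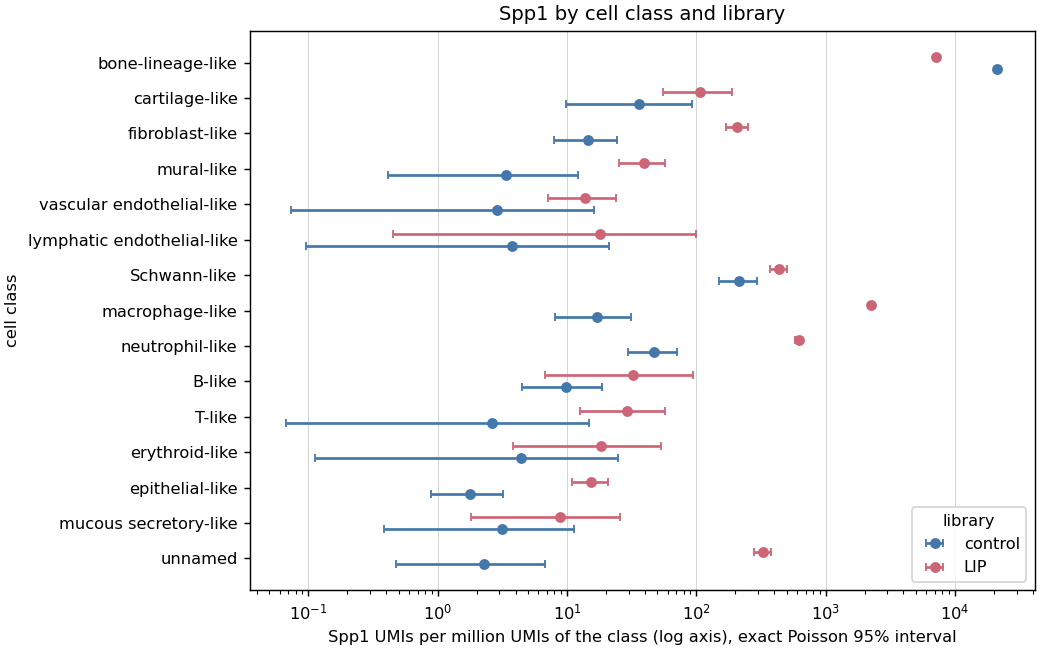
*Spp1* CPM (x axis, log) in each cell class (y axis) in the control and LIP libraries, with exact Poisson 95% intervals. The LIP point lies to the right of the control point in every class drawn except bone-lineage-like cells, and the widest gaps with separate intervals among named classes are those of macrophage-like, fibroblast-like and neutrophil-like cells.

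In macrophage-like cells *Spp1* was at 2250 CPM (2174 to 2328) in the LIP library, from 3296 UMIs in 41 of 79 cells, and at 16.9 CPM (8.11 to 31.1) in the control library, from 10 UMIs in 5 of 41 cells. The ratio was 133-fold (72.2 to 278), the 5th highest log2 ratio of the 4853 genes with at least 50 UMIs in these cells, of which 8.02% were more than 2-fold higher. The UMIs were unevenly shared: 5 LIP cells held 70.0% of them, the highest 740 and the next 510, and 8 cells had at least 100. The highest control cell held 5. Thinned to 1000 UMIs per cell, 24.4% of 78 LIP cells (15.3 to 35.4%) had a UMI and 0 of 39 control cells, which allows up to 9.03%, with 1 LIP and 2 control cells left out. In epithelial-like cells, which should hold little of it, the unthinned share in the LIP library was 35 of 113 cells at a median of 23944 UMIs, against 51.9% in macrophage-like cells at 16668, and after thinning it was 0 of 103. The LIP macrophage-like cells held 7 *Ibsp* UMIs, and the part of free RNA in their *Spp1* was not tested.

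**Figure D5:**
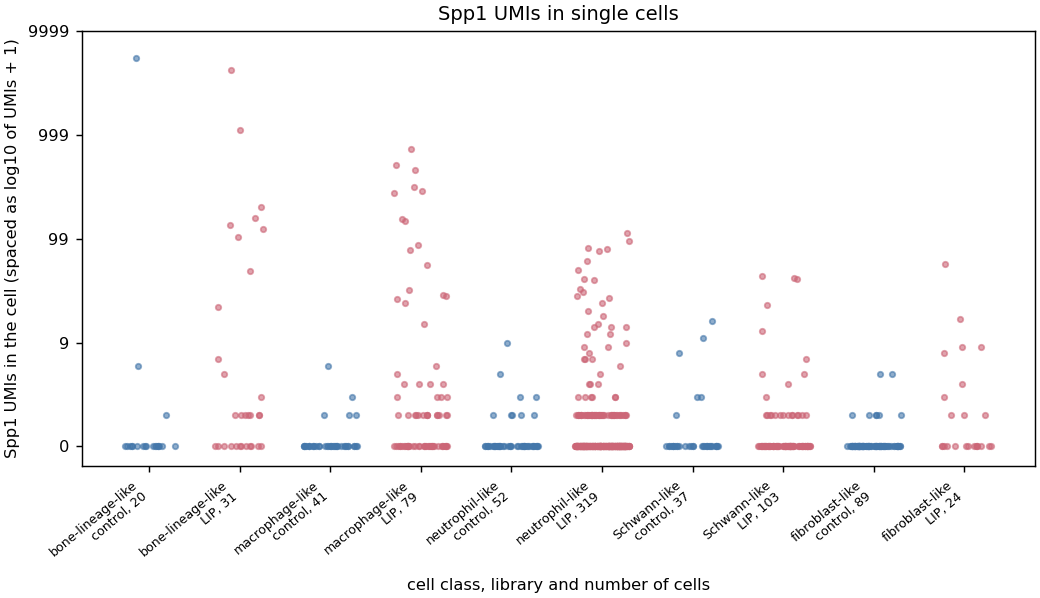
*Spp1* UMIs in each cell (y axis, spaced as the log10 of UMIs + 1) of 5 classes in the control and LIP libraries, with the number of cells under each column. A few bone-lineage-like and macrophage-like cells hold most UMIs, and the LIP neutrophil-like cells form a spread from 0 to 113.

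Neutrophil-like cells had 1006 *Spp1* UMIs in 87 of 319 LIP cells and 22 in 9 of 52 control cells, or 622 against 47.2 CPM, a 13.2-fold difference (8.66 to 21.1). The LIP UMIs lay almost all in 1 of the 2 neutrophil-like sub-clusters, the one led by *Acod1*, *Ccl3* and *Hcar2*, with 986 UMIs, and the sub-cluster of granule genes (*Ltf*, *Ngp*, *Camp*) held 20. In both libraries most neutrophil-like cells had none. After thinning the shares were 14.5% of 311 LIP cells (10.8 to 18.9%) and 5.77% of 52 control cells (1.21 to 15.9%), whose intervals overlap. These LIP cells held 13 *Ibsp* UMIs.

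Schwann-like cells, the glia of peripheral nerve, had *Spp1* in both libraries, at 433 CPM in the LIP library (191 UMIs in 24 of 103 cells) and 213 CPM in the control library (37 UMIs in 6 of 37 cells). The ratio was 2.04-fold (1.43 to 2.98), a log2 ratio of 1.03 that was 0.15 with each cell weighted equally, and thinning gave 10.1% and 13.9% of cells. In both libraries these UMIs lay mainly in the sub-cluster with myelin genes (*Mbp*, *Prx*), 182 of the LIP and 35 of the control UMIs. Fibroblast-like cells were at 207 CPM in the LIP library and 14.4 CPM in the control library, a 14.3-fold difference (8.15 to 27.1), with 56 of the 103 LIP UMIs in 1 cell, and its log2 ratio of 3.84 was 3.20 with cells weighted equally.

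The other members had few places outside bone-lineage-like cells. *Sparc* was the broadest: it was at 12801 CPM in LIP and 8360 CPM in control fibroblast-like cells, at 9694 and 7923 CPM in Schwann-like cells, at 4694 and 2052 CPM in vascular endothelial-like cells, and at 4098 and 2582 CPM in mural-like cells. The LIP level exceeded the control level in each of these classes, by 1.53-fold, 1.22-fold, 2.29-fold and 1.59-fold. In epithelial-like cells it was at 356 and 273 CPM and in macrophage-like cells at 32.8 and 15.2 CPM.

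*Dmp1* was found in mural-like cells, which wrap blood vessels, of the LIP library: 126 UMIs in 11 of 45 cells, at most 41 in 1 cell, against 3 UMIs in 2 of 46 control cells. The ratio was 38.8-fold with a counting interval of 13.0 to 191. Of the LIP UMIs 122 were in the sub-cluster led by the contractile genes *Tagln*, *Myh11* and *Myl9*, where *Ibsp* had 1 UMI, *Bglap* none, *Spp1* 6, *Alpl* 15 and *Sparc* 837. All mural-like cells together held 29.6% of the *Dmp1* UMIs of the LIP library. Over all mural-like cells *Alpl* was at a low level, 21 UMIs in 8 LIP cells and 1 in the control cells.

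In vascular endothelial-like cells *Alpl* had 40 UMIs in 8 of 48 control cells and 11 UMIs in 6 of 79 LIP cells. The control level was 116 CPM and the LIP level 12.7 CPM, a log2 ratio of -3.19 (-4.31 to -2.20), which was -0.25 with each cell weighted equally, so the size of the difference rested on how cells were weighted. The highest control cell held 13 of the UMIs.

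*Phex* had 69 UMIs in 15 of 89 control fibroblast-like cells, 71.2 CPM, with at most 14 in a cell, and 0 in the 24 LIP fibroblast-like cells. The LIP level was at least 11.8-fold lower against a floor of 3 counts. After thinning, 3.45% of 87 control cells had a UMI and 0 of 24 LIP cells, which allows up to 14.2%. *Phex* thus lay in different classes in the 2 libraries under the upper limits, all of it in bone-lineage-like cells in LIP and 98.6% of it in fibroblast-like cells in control.

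*Ifitm5* was counted at a low level in neutrophil-like cells of both libraries, 30 UMIs in 28 LIP cells and 8 in 7 control cells (18.6 and 17.2 CPM). *Car3* had 22 UMIs in 5 LIP and 20 in 9 control epithelial-like cells. *Ibsp*, *Bglap* and *Bglap2* stayed at 13 UMIs or fewer in every named class other than bone-lineage-like cells, apart from 14 single *Bglap* UMIs in control epithelial-like cells. A single LIP cell of 41511 UMIs in an unnamed sub-cluster led by cell cycle genes held 85 *Bglap*, 73 *Bglap2*, 124 *Alpl* and 858 *Sparc* UMIs, with 1596 of *Col1a1*, 2 of *Krt14* and none of *Ibsp*.

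The genes whose levels over classes were most like each member were compared by Pearson correlation of log2(CPM + 10) over 25 combinations of class and library with at least 10 cells, among 13123 genes. These points share libraries and, for most members, rest on the bone-lineage-like points, so the values are descriptions. *Bglap* and *Bglap2* were each closest to the other (0.99), followed by *Bglap3* (0.97 and 0.96), and *Ibsp* was closest to *Bglap3* (0.97) and *Bglap* (0.96). The third gene was *Ibsp* for *Bglap* and *Col24a1* for *Bglap2* (0.95). *Ifitm5* was closest to *Bglap2* (0.94). *Dmp1* was closest to the BMP antagonist *Grem1* (0.93), and *Sp7* was the third (0.88). *Car3* was closest to *Mmp10* (0.98) and *Phex* to *Cpz* (0.81). *Sparc* was closest to the collagen chaperone *Serpinh1* (0.97) and *Col5a2* was the third (0.94). *Spp1* had the lowest nearest values after *Phex*, with *Matn4* and *Mmp13* both at 0.82.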

How the data were processed

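Single-cell RNA sequencing was analysed for 1 control and 1 LIP library. The values deposited by the authors are counts of UMIs for each gene in each barcode, not normalized, which Cell Ranger made from 10x Genomics 3′ reads on mm10 (the headers of the matrices give version 3.1.0). The members, gene lists and comparisons were chosen with earlier results of these data known.

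A barcode was kept as a cell if it had 200 to 7500 genes, no more than 60000 UMIs and no more than 10% of them mitochondrial, which left 883 of 1169 control and 936 of 1212 LIP barcodes, with 13407122 and 10560109 UMIs. Of the barcodes passing the mitochondrial limit, 16 control and 24 LIP barcodes were over the upper limits. Integration and clustering used Seurat 5.3.0 (R 4.3.3; 2000 variable features, 30 dimensions, resolution 0.1, sub-clusters at 0.2), with the 10 members and *Bglap3* held out. Clusters were named from lists for 23 classes when at least 3 markers were found in 25% of cells at more than 2-fold. Scrublet in scanpy 1.11.5 marked 5 barcodes, which were kept. Counts were summed per class and library in Python 3.11.15 with scipy 1.17.1. With 1 library per condition no p-value was computed. A gene was counted as higher or lower past 2-fold with at least 50 UMIs over both libraries, and the ratio and its interval were tested on simulated data. All 10 members are described. Related genes are named where they passed 2-fold, with the 2 of each group that had the most UMIs, and the 3 genes most like each member were listed, of which some, including the nearest to *Alpl*, are not reported here. Genes named within single cells or within sub-clusters were chosen after their values were seen. Positions are from GENCODE vM21 on GRCm38, and for genes with several RefSeq promoters the one nearest the GENCODE start was used. Of 15 alternative settings, 2 were added after seeing the data: leaving out the control cell with the most *Spp1*, and dropping the upper limits without the control barcode with the most *Bglap*.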

Additional observations from a re-analysis of the deposited data

Results flagged for a closer look

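These results stood out because a gene's LIP to control ratio took different directions in different cell classes, or because barcodes outside the comparisons held more of a gene than the same kind of control barcodes. With 1 library per condition none of these differences was tested. *Spp1* was lower in LIP bone-lineage-like cells (log2 ratio -1.58) and higher in LIP Schwann-like (1.03), epithelial-like (3.09), neutrophil-like (3.72), fibroblast-like (3.84) and macrophage-like cells (7.06), of which the first rested on 1 control cell and the Schwann-like value was 0.15 with each cell weighted equally. The epithelial-like value came from 40 LIP UMIs in 35 of 113 cells and 11 control UMIs, with at most 2 in a cell. After thinning to 1000 UMIs, 0 of 103 LIP epithelial-like cells had one, and the part of free RNA was not tested. *Alpl* was higher in LIP bone-lineage-like cells (1.48) and lower in LIP vascular endothelial-like cells (-3.19), where it was -0.25 with cells weighted equally. *Phex* was higher in LIP bone-lineage-like cells, by a log2 ratio of at least 4.0, and lower in LIP fibroblast-like cells, at most -3.56, and 41 control UMIs of *Phex* lay in a bone-like barcode over the upper limits.

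Among the LIP barcodes over 7500 genes or 60000 UMIs, *Ibsp* was at 1294 CPM, *Spp1* at 2155 CPM and *Dmp1* at 75.5 CPM, against 286, 2.12 and 0.708 CPM in such control barcodes. In these barcodes *Bglap* (448 against 6727 CPM), *Bglap2* (155 against 3064) and *Car3* (9.29 against 122) were lower in LIP. The other members were higher. Many of these values rested on 1 barcode. A single LIP barcode held 3164 of 3341 *Ibsp*, 179 of 195 *Dmp1*, 114 of 115 *Phex* and 115 of 117 *Ifitm5* UMIs. A single control barcode held all 404 *Ibsp* and 173 *Car3* UMIs and 9502 of 9503 *Bglap* UMIs. For *Spp1*, 2 LIP barcodes held 2983 and 2542 of 5565 UMIs. Among LIP barcodes over 10% mitochondrial UMIs, *Spp1* was at 163 CPM and *Sparc* at 3340 CPM, against 11.8 and 1101 CPM in such control barcodes.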

How the results depend on the processing

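With the upper limits on genes and UMIs dropped, 3 members were higher and 3 lower in LIP bone-lineage-like cells, in place of 7 and 1. Of all genes, 6.6% were then higher and 6.3% lower, in place of 5.9% and 8.03%. Among the members, the log2 ratios of *Bglap* (-1.91), *Bglap2* (-2.10), *Car3* (-1.20) and *Sparc* (-0.061) changed sign. The control barcode with the most *Bglap* carried the changes in members: without it 7 were higher and 1 lower, beside 7.04% and 9.63% of all genes. The count lower was 0 with the top cell of each gene left out, without the control cell with the most *Spp1*, and at 3-fold. The *Spp1* log2 ratio there was 6.58 with the top cell left out and 8.20 without that control cell. With the class set by 3 markers *Sparc* was at -0.20 and *Dmp1* at -0.12, for which the cause was not tested. The median control share in bone-lineage-like cells was 35.0% with top cells left out and 42.2% without that control cell, and the LIP share was 97.6% at a mitochondrial limit of 5%. The *Spp1* share outside bone-lineage-like cells was 46.0% at 15 dimensions, 39.3% at the 5% limit, 29.4% without upper limits, with or without the control barcode with the most *Bglap*, and 71.7% with the top cell left out. The *Spp1* ratio in macrophage-like cells kept its direction in every setting. Related genes higher and lower were 5 and 2 without upper limits in place of 8 and 2, beside the same shares of all genes as above. Thinning to 2000 UMIs was run for shares. No paired analysis was possible because each condition had 1 library. Few cells and 1 pool per condition limit every comparison.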
